A study of Mus musculus with 15 samples.

Results

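The transcripts described here are 10 genes that mark the visceral endoderm of the yolk sac (YS), measured in sorted erythro-myeloid progenitors (EMPs), a blood cell population in which they can serve as a trace of neighbouring YS cells. The genes, *Afp*, *Apoa1*, *Apoa4*, *Apob*, *Apom*, *Rbp4*, *Ttr*, *Trf*, *Cubn* and *Amn*, were chosen by name from results already obtained on these libraries, so their levels and group differences are given as a description without p values, and nothing is concluded from calls among them. All 10 were found among the 17454 genes of the deposited expression values, which are in RPKM, reads scaled to transcript length and to all reads on genes.

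The visceral endoderm is the outer epithelial layer of the YS, which lies against the mesoderm where blood islands, vessels and EMPs form. It acts as a fetal nutrient organ before the placenta and the liver take over, making lipoproteins, carrier proteins for retinol, thyroid hormone and iron, and alpha-fetoprotein. On its apical side it takes up maternal proteins by endocytosis through cubilin, amnionless and megalin.

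EMPs were sorted from E10.5 YS of C57BL/6 mice as LIN-, SCA1-, KIT+, CD41+ and CD16/32+ cells, a gate that does not use any of the 10 genes. All 4 groups carried *Ezh2*fl/fl alleles: 3 Tie2-Ezh2-WT and 2 Vav-Ezh2-WT libraries without Cre, 5 Tie2-Ezh2-KO libraries with *Tie2*-Cre, active in endothelium and so before EMPs emerge, and 5 Vav-Ezh2-KO libraries with *Vav*-iCre, active in hematopoietic cells. The labels give 500 cells for a library and the study's methods a smaller number. A figure legend of the study gives an individual YS behind each replicate and 3 experiments, which are not assigned to libraries. Reads on genes ranged from 10407398 in Tie2-Ezh2-WT replicate 4 to 41025074 in Tie2-Ezh2-WT replicate 12, with a median of 16091836. Amplified reads are not independent molecules, so intervals and floors below cover counting error only.

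The targeted gene was read first. *Ezh2* stood at 36.9, 39.5 and 30.1 RPKM in Tie2-Ezh2-WT replicates 4, 10 and 12 and at 42 and 41.5 RPKM in Vav-Ezh2-WT replicates 4 and 6. In Tie2-Ezh2-KO replicates 7, 9, 11, 13 and 17 it stood at 27.8, 26.2, 24.8, 29.5 and 26.5 RPKM. Vav-Ezh2-KO replicates 1, 9, 10, 26 and 28 held 33.7, 42.4, 37.8, 38.1 and 34 RPKM. Every Tie2-Ezh2-KO value was lower than every WT value (log2 difference -0.48, SE 0.12, limma adjusted p = 0.0418, and 0.016 to 0.344 over the alternatives), and the call was lost under 11 of 19 alternatives, among them limma-voom, a common median, only Tie2-Ezh2-WT as control and the omission of any of 7 single libraries. Vav-Ezh2-KO values overlapped with WT. RPKM sums reads over the whole transcript, and the floxed exons were not analysed here, so these values do not check the deletion in either knockout.

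Before the groups are compared, a pair of libraries has to be named. Tie2-Ezh2-WT replicate 4 and Tie2-Ezh2-KO replicate 7, 1 library in each arm of the *Tie2*-Cre comparison, stood apart from the other 13 for visceral endoderm transcripts. Both exceeded every other library for 7 of the 8 members that passed 0.2 RPKM in at least 1 of those 13, a pattern shown by 1.45% of the 14145 genes that did so. The pair was named after these values were seen, so this count describes the pair and does not test it. Reads on the 10 members made up 0.0354% of all reads in Tie2-Ezh2-WT replicate 4 (exact 95% binomial confidence interval 0.0342% to 0.0365%) and 0.0467% in Tie2-Ezh2-KO replicate 7 (0.0456% to 0.0478%). In the remaining libraries the share lay between 0.00234% and 0.00703%. Bulk RNA does not tell fewer cells of a type from less RNA per cell, so these shares are amounts of transcript and not numbers of endoderm cells.

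*Afp* (chr5:90490714-90508907, GRCm38) encodes alpha-fetoprotein, the main serum protein of the early embryo. Its level was 48.2, 1.33 and 0.502 RPKM in Tie2-Ezh2-WT replicates 4, 10 and 12 and 0.934 and 1.78 RPKM in Vav-Ezh2-WT replicates 4 and 6. Among Tie2-Ezh2-KO libraries it was 59.9 RPKM in replicate 7 and 2.01, 0.971, 0.84 and 2.44 RPKM in replicates 9, 11, 13 and 17. The Vav-Ezh2-KO libraries held 0.594, 1.72, 1.19, 0.833 and 0.267 RPKM in replicates 1, 9, 10, 26 and 28. *Afp* was thus high in 1 Tie2-Ezh2-WT and 1 Tie2-Ezh2-KO library and low in all others, where the 4 groups overlapped. It was never at 0, with 16 to 82 reads per library outside the high pair and 1047 and 1991 reads within it.

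Of the 4 apolipoprotein members, *Apoa1* and *Apoa4* are neighbours on chromosome 9 (chr9:46228630-46230469 and chr9:46240844-46243458), and both encode proteins of high-density particles and chylomicrons. *Apoa1* stood at 47.6, 1.28 and 0.668 RPKM in Tie2-Ezh2-WT replicates 4, 10 and 12 and at 1.36 and 2.09 RPKM in Vav-Ezh2-WT replicates 4 and 6. It reached 71.7 RPKM in Tie2-Ezh2-KO replicate 7, beside 2.86, 1.99, 1.17 and 4.23 RPKM in replicates 9, 11, 13 and 17. Vav-Ezh2-KO replicates 1, 9, 10, 26 and 28 held 0.719, 2.09, 1.87, 1.41 and 0.46 RPKM. The same pair of libraries was high and the groups overlapped in the rest. *Apoa4* repeated this at a lower level, with 7.79 RPKM in Tie2-Ezh2-WT replicate 4 and 10.2 RPKM in Tie2-Ezh2-KO replicate 7. Elsewhere it ranged from 0 to 0.524 RPKM and was at 0 in 9 libraries.

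*Apom*, which encodes a lipocalin carried on high-density particles (chr17:35128997-35131801), was at 23.9 RPKM in Tie2-Ezh2-WT replicate 4 and 28.3 RPKM in Tie2-Ezh2-KO replicate 7. In the other 13 libraries it ranged from 0 to 1.92 RPKM, with the groups overlapping. *Apob*, whose product is the structural protein of very-low-density particles (chr12:7977629-8016839), did not share this pattern. Its highest level was 0.0345 RPKM, from 5 reads in Tie2-Ezh2-WT replicate 4. Tie2-Ezh2-KO replicate 7 held 0.0135 RPKM and Tie2-Ezh2-KO replicate 13 held 0.0188 RPKM, and the other 12 libraries were at 0. *Apob* was therefore the member that never passed 0.2 RPKM in a library.

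*Rbp4* encodes the plasma carrier of retinol (chr19:38116620-38125321). It stood at 32.4, 0.975 and 0.432 RPKM in Tie2-Ezh2-WT replicates 4, 10 and 12 and at 0.932 and 1.27 RPKM in Vav-Ezh2-WT replicates 4 and 6. Levels in Tie2-Ezh2-KO replicates 7, 9, 11, 13 and 17 were 54.7, 3.88, 0.52, 1.09 and 2.83 RPKM. Among Vav-Ezh2-KO libraries they were 1.01, 1.42, 0.32, 0.804 and 1.1 RPKM in replicates 1, 9, 10, 26 and 28. Tie2-Ezh2-KO replicates 9 and 17 were the next highest after the pair, and Tie2-Ezh2-KO replicates 11 and 13 lay within the ranges of WT and Vav-Ezh2-KO.

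*Ttr* encodes transthyretin, the thyroid hormone carrier that also binds the product of *Rbp4*. It was at 13.5, 0 and 0 RPKM in Tie2-Ezh2-WT replicates 4, 10 and 12 and at 0.055 and 0.616 RPKM in Vav-Ezh2-WT replicates 4 and 6. Tie2-Ezh2-KO replicates 7, 9, 11, 13 and 17 held 22.6, 0.429, 0, 0.183 and 0.407 RPKM. The Vav-Ezh2-KO libraries ranged from 0 to 0.261 RPKM with a median of 0.0712 RPKM. Outside the pair *Ttr* was low or absent in every group.

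*Trf*, the gene of transferrin, the iron carrier of plasma (chr9:103208876-103230286), differed from the other members in its level outside the pair, which was above that of all of them. It stood at 48.9, 17.5 and 23.3 RPKM in Tie2-Ezh2-WT replicates 4, 10 and 12 and at 14 and 19.9 RPKM in Vav-Ezh2-WT replicates 4 and 6. Tie2-Ezh2-KO replicates 7, 9, 11, 13 and 17 held 51.6, 22.5, 20.2, 18.8 and 22.2 RPKM. Vav-Ezh2-KO replicates 1, 9, 10, 26 and 28 held 16.9, 9.92, 10.9, 18.5 and 8.36 RPKM. The pair was again highest, WT overlapped with both knockouts, and all Tie2-Ezh2-KO libraries lay above all Vav-Ezh2-KO libraries by a narrow margin. Its fewest reads were 426, so this member was well counted throughout, unlike *Ttr*, *Apoa4* or *Apob*.

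*Cubn* and *Amn* encode cubilin and amnionless, the 2 parts of the apical receptor that takes up vitamin B12 bound to intrinsic factor and other proteins. *Cubn* (chr2:13276338-13491876) was at 0.637 RPKM in Tie2-Ezh2-KO replicate 7, from 115 reads, and at 0.153 RPKM in Tie2-Ezh2-WT replicate 4. In the other 13 libraries it ranged from 0 to 0.0796 RPKM.

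*Amn* (chr12:111271096-111276426) was highest in Tie2-Ezh2-KO as a group, and within WT and within Tie2-Ezh2-KO it was highest in the same pair of libraries. It stood at 0.798, 0 and 0 RPKM in Tie2-Ezh2-WT replicates 4, 10 and 12 and at 0 and 0.119 RPKM in Vav-Ezh2-WT replicates 4 and 6. In Tie2-Ezh2-KO replicates 7, 9, 11, 13 and 17 it stood at 4.66, 1.67, 1.52, 2.08 and 2.21 RPKM. Among Vav-Ezh2-KO libraries it was at 0.176 RPKM in replicate 10 and at 0 in the other 4. Each Tie2-Ezh2-KO library was above every WT and Vav-Ezh2-KO library, with 38 to 125 reads against 0 to 14 in WT and 0 to 5 in Vav-Ezh2-KO. For a library at 0, a floor of 3 reads allows *Amn* levels of up to 0.155 RPKM in Vav-Ezh2-KO replicate 26 and less in the others at 0. *Amn* was low in WT whether or not Tie2-Ezh2-WT replicate 4 was counted, with a mean of 0.183 ± 0.348 RPKM (SD, n = 5) with it and 0.0297 ± 0.0595 RPKM (SD, n = 4) without it.

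**Figure D1:**
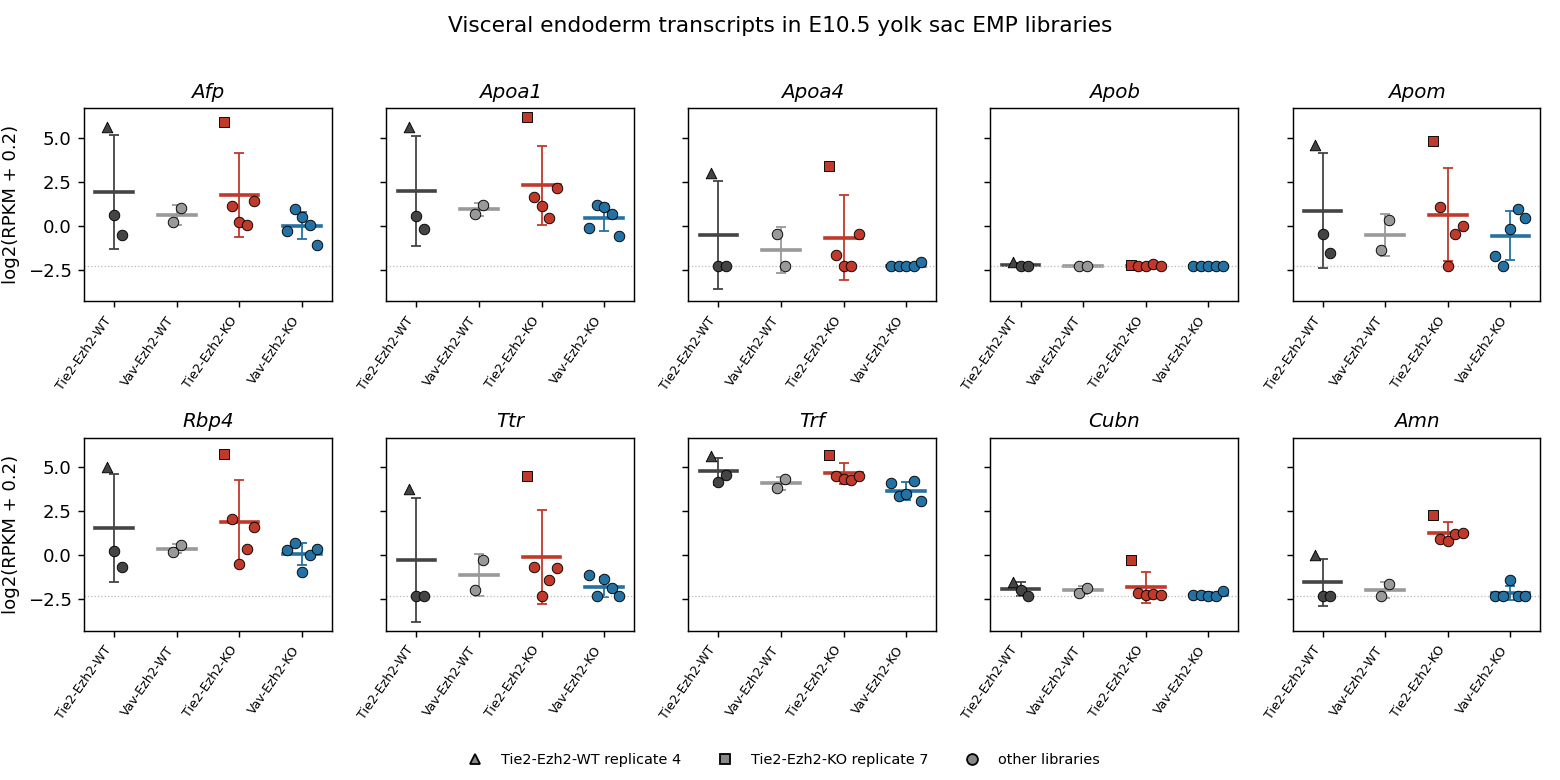
Levels of the 10 members as log2(RPKM + 0.2) in every library, by group, with horizontal bars at the group mean, error bars of 1 SD and a dotted line at 0 RPKM. Tie2-Ezh2-WT replicate 4 (triangle) and Tie2-Ezh2-KO replicate 7 (square) are high for *Afp*, *Apoa1*, *Apoa4*, *Apom*, *Rbp4*, *Ttr* and *Trf*, whereas *Amn* is above the WT libraries in all 5 Tie2-Ezh2-KO libraries.

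Of the 10 members, 7 kept similar proportions in the high pair. In RPKM, Tie2-Ezh2-KO replicate 7 exceeded Tie2-Ezh2-WT replicate 4 by a factor between 1.06 for *Trf* and 1.68 for *Rbp4* and *Ttr* among the 7 secreted members other than *Apob*. The factor was 4.17 for *Cubn*, 5.83 for *Amn* and 0.392 for *Apob*, which had few reads in either. *Apoa1* and *Afp* were among the 3 most abundant members in both libraries, and *Rbp4*, *Apom*, *Ttr* and *Apoa4* came below them in that order.

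The comparison of Tie2-Ezh2-KO with WT asks what loss of Ezh2 from the endothelial stage does to EMPs, and here what it does to endoderm transcripts among them. The summed level of the 10 members was 85.1 ± 123 RPKM (SD, n = 5) in Tie2-Ezh2-KO and 63 ± 89.7 RPKM (SD, n = 5) in WT libraries, a spread set by 1 library in each group. Without the pair, the sums were 30.2 ± 6.1 RPKM (SD, n = 4) and 22.9 ± 3.88 RPKM (SD, n = 4), most of it *Trf*. The 9 members other than *Trf* summed to 9.32 ± 4.47 RPKM (SD, n = 4) and 4.24 ± 2.16 RPKM (SD, n = 4) without the pair, with overlap between the groups. On the log2(RPKM + 0.2) scale, which understates changes of low genes, the summed level differed by 0.40 (Tie2-Ezh2-KO minus WT) with all libraries and by 0.39 without the pair. Leaving out a single library of the pair turned the difference to -0.27 without Tie2-Ezh2-KO replicate 7 and to 1.06 without Tie2-Ezh2-WT replicate 4.

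Single members were compared in the same way. The log2 difference for *Afp* was 0.37 (SE 1.15), and 0.39 (SE 0.42) without the pair. That of *Apoa1* was 0.75 (SE 1.08), and 0.79 (SE 0.41) without the pair. For *Rbp4* it was 0.79 (SE 1.11), and 0.80 (SE 0.52) without the pair. Each was smaller than its standard error with all libraries, and the groups overlapped with and without the pair. With 1 library left out in turn, the difference ranged from -0.67 to 1.43 for *Afp*, -0.22 to 1.75 for *Apoa1* and -0.19 to 1.78 for *Rbp4*. All were negative without Tie2-Ezh2-KO replicate 7, and that of *Afp* also without Tie2-Ezh2-WT replicate 12 (-0.10) and with only Tie2-Ezh2-WT as control (-0.15). *Apoa4*, *Apom*, *Ttr*, *Trf* and *Cubn* differed by 0.21, 0.32, 0.51, 0.16 and 0.14 with all libraries and by 0.17, 0.33, 0.45, 0.18 and -0.14 without the pair, *Cubn* turning direction. Without Tie2-Ezh2-KO replicate 7 alone all 5 were negative, and *Apoa4*, *Apom* and *Trf* were so under other choices too, such as only Tie2-Ezh2-WT as control (-0.13, -0.24 and -0.12). *Amn* differed by 3.01 (SE 0.45), and by 3.19 (SE 0.32) without the pair.

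Across all genes, limma called 386 of the 14154 genes tested at an adjusted p under 0.05 (2.73%), 343 of them higher and 43 lower in Tie2-Ezh2-KO. Of the members, 9 were above 0.2 RPKM in a library of this comparison and so entered the fit, and 1, *Amn*, was among the genes called. *Amn* was also the 1 member whose lowest Tie2-Ezh2-KO value exceeded the highest WT value, a pattern shown by 3.29% of the genes tested. Without the pair, 217 of 13840 genes were called (1.57%), 206 of which were among the 386, and *Amn* was again among them. Since the members were chosen on these libraries, nothing is read from these counts.

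In Vav-Ezh2-KO the comparison concerns deletion after hematopoietic commitment, and it shares its WT libraries with the comparison above. The summed level of the members was 17 ± 4.58 RPKM (SD, n = 5) in Vav-Ezh2-KO libraries. Its log2 difference to WT was -1.11 with all libraries and -0.46 without Tie2-Ezh2-WT replicate 4, where *Trf* made up most of the sum. The 9 other members summed to 4.05 ± 1.11 RPKM (SD, n = 5) in Vav-Ezh2-KO and 4.24 ± 2.16 RPKM (SD, n = 4) in WT without that library. *Afp* differed by -1.37 (SE 0.87) and, without that library, by -0.31 (SE 0.42). *Trf* differed by -0.85 (SE 0.29) and, without it, by -0.57 (SE 0.23), with the groups overlapping in both cases. *Rbp4* differed by -0.98 (SE 0.81) and, without it, by 0.01 (SE 0.36). The distance of *Afp* and *Rbp4* from WT thus rested mostly on that 1 WT library, and that of *Trf* only in part. For *Amn* the difference was -0.42 (SE 0.42) and, without it, 0.01.

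Over all genes, limma called 1 of 13646 genes (0.00733%) between Vav-Ezh2-KO and WT, while 1082 had an unadjusted p under 0.05. None of the 8 members in the fit was among the genes called. The called gene was *Sva*, named here after its values were seen, at 1.37 to 4.5 RPKM in Vav-Ezh2-KO and at 0 in all WT libraries (log2 difference 3.86, SE 0.30, limma adjusted p = 3.72e-05). With limma-voom on recovered reads no gene was called, and the adjusted p of *Sva* over the alternatives ranged from 6.83e-06 to 0.253. Limma-voom was the 1 alternative that lost the call. The recovered reads of *Sva*, which had signal only in Vav-Ezh2-KO, are the lowest whole numbers that match its RPKM values. They may be too low, which limits what the limma-voom fit says about *Sva*.

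A direct comparison of the knockouts uses no WT library. *Amn* differed by 3.42 (Tie2-Ezh2-KO minus Vav-Ezh2-KO, log2 scale, SE 0.33), and by 3.18 (SE 0.30) without Tie2-Ezh2-KO replicate 7. *Trf* differed by 1.01 (SE 0.27), and by 0.75 (SE 0.22) without that library. *Afp* differed by 1.74 (SE 0.86), and by 0.70 (SE 0.43) without it. Of 14120 genes tested, 495 were called (3.51%), 372 higher and 123 lower in Tie2-Ezh2-KO, and of the 9 members in the fit 1, *Amn*, was among them. *Amn* and *Trf* did not overlap between the knockouts, Tie2-Ezh2-KO being higher, which 3.56% of genes did. Without Tie2-Ezh2-KO replicate 7, 345 genes were called, 321 of them shared with the 495, and without replicate 9 there were 969.

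Other genes of the visceral endoderm, none of them a member, were listed in 3 groups: 25 secreted proteins, 16 genes of uptake, apical transport and other functions, and 15 transcription factors and signals. The group of 16, called the uptake group below, also holds the homeobox gene *Rhox5* and the transcriptional coregulator gene *Cited1*. These groups and the lists below were chosen with earlier results of these data known, so calls and p values among them are a description. The expression values held 53 of these 56 genes, and 37 were tested in Tie2-Ezh2-KO against WT. Of these, 1 was called higher, the peptidase gene *Dpp4*, and 0 lower, where 2.73% of all genes tested were called. The median log2 difference of the 37 was 0.10, against 0.01 over all genes. For Vav-Ezh2-KO minus WT the median was -0.50 over 34 genes tested, against -0.02 over all genes. For Tie2-Ezh2-KO minus Vav-Ezh2-KO it was 0.56 over 36 genes, against 0.04. Each of the latter comparisons holds a single library of the pair, on 1 side only. *Dpp4* stood at 3.52 ± 0.52 RPKM (SD, n = 5) in Tie2-Ezh2-KO and 1.45 ± 0.254 RPKM (SD, n = 5) in WT, higher in all 5 libraries (log2 difference 1.17, SE 0.23, limma adjusted p = 0.00967). Without the pair its log2 difference was 1.06, with all libraries still above WT, but it was not called (adjusted p = 0.0785), nor was it with only Tie2-Ezh2-WT as control, at an adjusted p of 0.00301 to 0.0939 over the alternatives.

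Tie2-Ezh2-WT replicate 4 and Tie2-Ezh2-KO replicate 7 were both above the other 13 libraries for 9 of the 12 secreted genes and 8 of the 13 genes of the uptake group that passed 0.2 RPKM in at least 1 of those 13, beside 1.45% of all such genes. *Cited1* was among these 8. Genes above 0.2 RPKM only in the pair were not counted, and this filter was chosen after the values were seen. *Apoa2*, of high-density lipoprotein, was at 31.4 and 30.8 RPKM in the pair and from 0.281 to 4.02 RPKM elsewhere. *Spp2*, a secreted phosphoprotein, was at 11.8 and 10.7 RPKM and at 0.461 RPKM or below elsewhere. Fibrinogen chains showed the same step. *Fgb* was at 6.84 and 5.39 RPKM in the pair and *Fgg* at 5.11 and 5.56 RPKM. These examples outside the naming rule were chosen after their values were seen.

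Summed over the 24 secreted genes measured, the level was 87.1, 14.4 and 16.7 RPKM in Tie2-Ezh2-WT replicates 4, 10 and 12 and 19 and 11.7 RPKM in Vav-Ezh2-WT replicates 4 and 6. Tie2-Ezh2-KO replicates 7, 9, 11, 13 and 17 had sums of 113, 20.5, 12.3, 12.2 and 16 RPKM. Sums in Vav-Ezh2-KO replicates 1, 9, 10, 26 and 28 were 13, 27, 13.7, 10.4 and 24.8 RPKM. The sum was high in the pair and overlapped between groups otherwise. *Apoc1* had the highest mean of the group over all libraries but not the highest level in the pair, where *Apoa2*, *Apoc2* and *Spp2* exceeded it. It was at 8.01 and 8.25 RPKM within a range of 4.45 to 18.9 RPKM. *Alb*, *Apoh* and *Fetub* were the 3 genes of this group at 0 in every library, and 12 of the 24 passed 1 RPKM in a library.

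The uptake group was led by *Soat2*, a cholesterol esterifying enzyme present at 18.8 to 29.4 RPKM in all libraries. The summed level of its 16 genes was 67.7 and 64.7 RPKM in the pair and 26.8 to 79.5 RPKM elsewhere, a sum that *Soat2* and *Rhox5*, a homeobox gene at 0.0742 to 51 RPKM and above *Soat2* in 3 libraries, dominated outside the pair. Without these genes, left out after their values were seen, the other 14 summed to 33.3 and 37.5 RPKM in the pair and 4.59 to 11.2 RPKM elsewhere. *Lrp2*, which encodes megalin, the partner of cubilin in endocytosis, was at 0.0435 and 0.0446 RPKM in the pair, from 7 and 11 reads, and at 0 in the other 13 libraries. *Cited1*, a transcriptional coregulator gene in this group, was called between the knockouts at 2.5 ± 0.951 RPKM (SD, n = 5) in Tie2-Ezh2-KO and 0.592 ± 0.626 RPKM (SD, n = 5) in Vav-Ezh2-KO (log2 difference 2.17, SE 0.56, limma adjusted p = 0.045). Its highest Vav-Ezh2-KO library, at 1.48 RPKM, overlapped the lowest Tie2-Ezh2-KO library, at 1.15 RPKM. The call held in 6 of 17 alternatives (adjusted p of 0.0168 to 0.105), being lost with limma-voom, both other scalings and 6 of the libraries left out in turn.

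Defining transcription factors of visceral endoderm that were read here were low or at 0. *Hnf4a* was at 0.022 RPKM in Tie2-Ezh2-WT replicate 4 and 0.0864 RPKM in Tie2-Ezh2-KO replicate 7, below its highest level of 0.128 RPKM in Tie2-Ezh2-KO replicate 13. *Foxa2*, *Gata4* and *Gata6* were at 0 in both libraries of the pair, and their highest levels elsewhere were 0.254, 0.193 and 0.0973 RPKM. *Creb3l3*, whose mean over all libraries was the highest of the 13 factors and signals measured, a rank that rested on Tie2-Ezh2-WT replicate 4, was at 1.35 and 0.33 RPKM in the pair and up to 0.359 RPKM elsewhere, so that only Tie2-Ezh2-WT replicate 4 stood apart. Of 4 factors and signals above 0.2 RPKM outside the pair, 0 were highest in both libraries of the pair. The summed level of this group was 1.69 and 0.934 RPKM in the pair and from 0.031 to 0.821 RPKM elsewhere. *Sox17* was not analysed here.

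Genes of the gate were present throughout. *Kit* ranged from 15.2 to 45.8 RPKM over the 15 libraries, with 27.9 and 23 RPKM in the pair. *Itga2b*, which encodes CD41, ranged from 16.7 to 41.7 RPKM, with 28 and 22.6 RPKM in the pair. *Fcgr3*, of CD16, ranged from 66.9 to 194 RPKM, with 102 and 96.2 RPKM in the pair. The sum of the 13 EMP genes, in which *Gfi1b* was most abundant, was 932 and 1.14e+03 RPKM in the pair and between 859 and 1.09e+03 RPKM elsewhere. Tie2-Ezh2-KO replicate 7 had the highest sum by a small margin and Tie2-Ezh2-WT replicate 4 lay within the range, so the pair did not share a step for genes of the sorted population. *Gfi1b* was the 1 EMP gene called between the knockouts, at 267 ± 55.2 RPKM (SD, n = 5) in Tie2-Ezh2-KO and 177 ± 14.9 RPKM (SD, n = 5) in Vav-Ezh2-KO (log2 difference 0.57, limma adjusted p = 0.03, and 0.00815 to 0.193 over 17 alternatives, 9 of which kept the call), with all 5 Tie2-Ezh2-KO libraries higher.

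Epithelial junction and keratin genes were listed as a further group, also with earlier results of these data known. All 12 listed were measured, with *Krt18* the most abundant. Of the 9 above 0.2 RPKM outside the pair, 2 were higher in both libraries of the pair than elsewhere and 4 in Tie2-Ezh2-KO replicate 7 alone. *Cldn6*, a tight junction gene chosen here after its values were seen, was at 2.62 and 2.79 RPKM in the pair and from 0 to 0.394 RPKM elsewhere. In Tie2-Ezh2-KO against WT, 11 were tested and 4 were called, *Epcam*, *Krt18*, *Spint1* and *Ocln*, all higher, where 2.73% of all genes tested were called. *Epcam*, the epithelial adhesion molecule, stood at 0.793, 0.614 and 0.154 RPKM in Tie2-Ezh2-WT replicates 4, 10 and 12 and at 0.554 and 0.219 RPKM in Vav-Ezh2-WT replicates 4 and 6. Tie2-Ezh2-KO replicates 7, 9, 11, 13 and 17 held 6.24, 3.9, 2.36, 3.94 and 2.92 RPKM, all above WT. Its log2 difference was 2.65 (SE 0.35, limma adjusted p = 0.00059), and 2.64 without the pair (adjusted p = 0.00268, within a range of 0.000341 to 0.0068 over the alternatives). *Epcam* was therefore higher in Tie2-Ezh2-KO, as *Amn* was, and not in Tie2-Ezh2-WT replicate 4.

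The other called genes of this group were less stable. *Krt18*, at 25.5 ± 7.42 RPKM (SD, n = 5) against 13.2 ± 2.29 RPKM (SD, n = 5) in WT, had a log2 difference of 0.90 (limma adjusted p = 0.0199, and 0.00323 to 0.179 over the alternatives). It overlapped with WT in 1 library, and was not called with limma-voom, with only Tie2-Ezh2-WT as control, without Tie2-Ezh2-KO replicate 7 or without either Vav-Ezh2-WT library. *Spint1*, which encodes a serine protease inhibitor, had a log2 difference of 2.53 (limma adjusted p = 0.00565, 0.0411 without the pair, and 0.00242 to 0.0598 over the alternatives), with all 5 Tie2-Ezh2-KO libraries above WT. *Ocln*, which encodes occludin, had a log2 difference of 1.64 (limma adjusted p = 0.0468, and 0.0119 to 0.175 over the alternatives, the highest being that without the pair, with the call kept in 6 of 19), with overlap between the groups. *Epcam*, *Krt18*, *Spint1*, *Ocln* and *Tjp3* were called higher in Tie2-Ezh2-KO than in Vav-Ezh2-KO, where 3.51% of all genes tested were called. Of 17 alternatives, *Epcam* and *Ocln* kept the call in 17, *Krt18* in 15, *Tjp3* in 11 and *Spint1*, whose groups overlapped, in 8. The summed epithelial level was 30.1 to 60.9 RPKM in Tie2-Ezh2-KO, with 60.9 RPKM in replicate 7. It was 14.6 to 27.7 RPKM in WT, with 27.7 RPKM in Tie2-Ezh2-WT replicate 4, and 15.6 to 20 RPKM in Vav-Ezh2-KO.

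Markers of other cells of the YS were read in the same way, from lists also chosen with earlier results known. Of 10 listed genes of primitive erythroid cells 8 were measured, with *Hbb-bh1* most abundant, and *Hba-x* and *Hbb-bh1* were called higher in Tie2-Ezh2-KO than in WT. *Hba-x*, an embryonic alpha-like globin, had levels in Tie2-Ezh2-KO replicates 7, 9, 11, 13 and 17 of 38.4, 305, 339, 32.9 and 117 RPKM and in WT of 0.316 to 2.67 RPKM (log2 difference 6.33, limma adjusted p = 8.88e-05, 0.000492 without the pair, and 6.68e-05 to 0.0802 over the alternatives, the call being lost with limma-voom). *Hbb-bh1* stood at 274 ± 142 RPKM (SD, n = 5) in Tie2-Ezh2-KO and 114 ± 32.1 RPKM (SD, n = 5) in WT, with a log2 difference of 1.18 (limma adjusted p = 0.0441, 0.123 without the pair, and 0.0248 to 0.246 over 19 alternatives, 6 of which kept the call), and all 5 Tie2-Ezh2-KO libraries were higher. Globin levels did not follow the pair: *Hba-x* was at 1.44 RPKM in Tie2-Ezh2-WT replicate 4, and its highest Tie2-Ezh2-KO library was replicate 11. The summed level of the 8 genes was 175 RPKM in Tie2-Ezh2-WT replicate 4 and 353 RPKM in Tie2-Ezh2-KO replicate 7, within ranges of 96.3 to 175 RPKM in WT and 231 to 894 RPKM in Tie2-Ezh2-KO.

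The 12 endothelial genes, led by *Egfl7*, summed to 169 and 186 RPKM in the pair and to between 140 and 189 RPKM elsewhere. Their levels differed widely. The defining marker *Cdh5* was at 0.349 RPKM or below in all libraries, and *Cldn5* and *Stab2* were at 0.351 and 0.0154 RPKM at most. *Pecam1* ranged from 6.67 to 26.1 RPKM, *Tek* from 3.91 to 13.2 RPKM, *Esam* from 6.39 to 18.3 RPKM and *Eng* from 4.43 to 13.3 RPKM. The genes given beside *Cdh5* were named after their values were seen. The 11 genes measured, of 12 listed, of mesenchyme and mesothelium, led by *Pdgfrb*, summed to 2.34 and 2.86 RPKM in the pair and to between 1.49 and 3.4 RPKM elsewhere. *Col1a1* and *Pdgfra*, markers of mesenchyme, were at 0.106 and 0.00526 RPKM at most, and *Col1a2*, *Col3a1* and *Wt1* at 0.159, 0.092 and 0.0162 RPKM at most. *Pdgfrb* was higher, at 0.46 to 1.89 RPKM in all libraries, and *Postn* and *Lrrn4* reached 1.37 and 0.793 RPKM. Those added to *Col1a1*, *Pdgfra* and *Pdgfrb* were named after their values were seen. The 9 macrophage genes measured, of 10 listed, led by *Cd68*, summed to 17.1 and 18.9 RPKM in the pair and to between 8.18 and 27.8 RPKM elsewhere, with *C1qa* at 0 in all libraries. The 7 megakaryocyte genes, led by *Pf4*, summed to 98.7 and 119 RPKM in the pair and to between 51.3 and 256 RPKM elsewhere. In none of these 4 lists was the sum of the pair outside the range of the other libraries. Of their genes, 1 that passed 0.2 RPKM only in the pair was higher in both than elsewhere, the mesothelial *Upk3b*, named after its values were seen, at 0.0472 RPKM (1 read) and 0.247 RPKM (8 reads) in the pair and at 0 elsewhere. No gene of the 4 was called against WT in either knockout with all libraries. Without the pair, the endothelial *Lyve1*, named after its values were seen, was called higher in Tie2-Ezh2-KO (log2 difference 1.55, limma adjusted p = 0.0261, against 1.16 and 0.0911 with all libraries), with all 4 Tie2-Ezh2-KO libraries above WT and the call made in 2 of 19 alternatives (adjusted p of 0.0261 to 0.436). *Cd68* was called lower in Tie2-Ezh2-KO than in Vav-Ezh2-KO (log2 difference -0.71, limma adjusted p = 0.0333, and 0.00894 to 0.094 over 17 alternatives, 9 of which kept the call), lower in all 5 libraries. What part other cells of the YS had in the levels of the members was not tested.

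**Figure D2:**
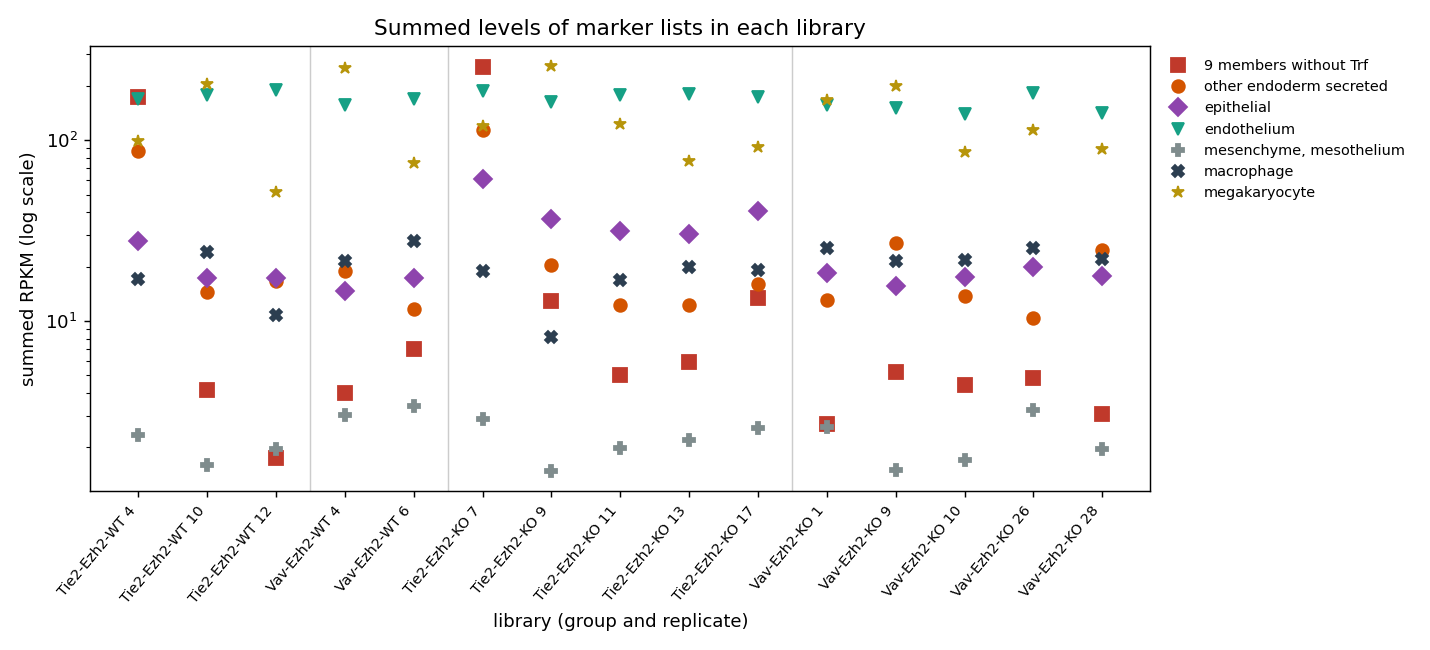
Summed RPKM, on a log axis, of the members without *Trf* and of 6 marker lists in each of the 15 libraries, with vertical lines between the groups. The 9 members reach 174 RPKM in Tie2-Ezh2-WT replicate 4 and 253 RPKM in Tie2-Ezh2-KO replicate 7 and lie between 1.74 and 13.4 RPKM elsewhere, and the endothelial, mesenchymal, macrophage and megakaryocyte sums show no such step.

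Genes that handle what the members carry were listed as their partners, again with earlier results known. The 7 iron genes, led by the ferritin light chain gene *Ftl1*, included the transferrin receptor gene *Tfrc*, at 16.9 to 28 RPKM in all libraries, and none was called in the 3 comparisons. Of 12 lipoprotein genes, led by *Apoe* at 330 to 627 RPKM, *Pltp* was called higher in Tie2-Ezh2-KO than in WT. *Pltp*, of phospholipid transfer, stood at 0.771 ± 0.419 RPKM (SD, n = 5) against 0.0569 ± 0.0915 RPKM (SD, n = 5) in WT, a log2 difference of 1.85 (limma adjusted p = 0.0129, 0.0924 without the pair, and 0.00279 to 0.0994 over the alternatives), with overlap in 1 library. *Pltp* and *Vldlr*, a lipoprotein receptor gene, were called higher in Tie2-Ezh2-KO than in Vav-Ezh2-KO, with log2 differences of 1.72 and 1.07. The call of *Pltp* held in 9 of 17 alternatives and that of *Vldlr* in 5 of 16, both being lost without any of several single libraries. Of 7 retinol genes 5 were measured, led by *Dhrs3*, and had no call. The 6 genes of cobalamin transport, led by *Cd320*, had no call, and *Gif*, the gene of intrinsic factor, was at 0.17 RPKM or below.

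For the 8 members that reached 1 RPKM in a library, thus not for *Apob* and *Cubn*, the most similar genes over the 15 libraries were ranked by Pearson's r of log2(RPKM + 0.2), as a description. *Afp* was most like *Apoa1* (r = 0.99), *Kng1* (r = 0.96) and *Spp2* (r = 0.95), and *Apoa1* was most like *Afp*, *Hsd17b2* (r = 0.95) and *Kng1* (r = 0.95). Outside the pair, r over 13 libraries was 0.94 between *Afp* and *Apoa1* and 0.55 between *Afp* and *Kng1*. *Afp* and *Apoa1* thus varied together at low levels as well, whereas *Kng1* was at 0.0643 RPKM or below there. *Apoa4* was most like *Marc1* (r = 0.97), *Hsd17b2* (r = 0.96) and *Slc39a5* (r = 0.96). *Rbp4* was most like *Spp2*, *Afp* and *Ttr*, each with r = 0.94. *Ttr* was most like *Fgg*, *Kng1* and *Folr1*, each with r = 0.96. *Apom* was most like *Ttr* (r = 0.90), *Tlr3* (r = 0.88) and *Fgg* (r = 0.88). These correlations share 2 high points, and over the other 13 libraries none but that of *Afp* with *Apoa1* exceeded 0.74.

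*Trf* and *Amn* had other companions. *Trf* was most like *Sgpp2* (r = 0.93), *Mogat2* (r = 0.91) and *Nup88* (r = 0.88), with r of 0.89, 0.84 and 0.91 over the 13 libraries. *Amn* was most like *Gcat* (r = 0.96), *Cldn3* (r = 0.96) and *Fndc4* (r = 0.94), with r of 0.98, 0.96 and 0.93 over the 13 libraries. *Gcat*, of threonine breakdown, was at 25.4 to 34.8 RPKM in Tie2-Ezh2-KO and 8.33 to 13.7 RPKM in the other groups. *Cldn3*, a tight junction claudin gene, was at 0.787 to 1.89 RPKM in Tie2-Ezh2-KO and 0 to 0.198 RPKM in the other groups. The ranges of *Gcat* and *Cldn3* in Tie2-Ezh2-KO, like that of *Amn*, did not overlap with those of the other groups. Since both genes were picked for their likeness to *Amn* over the same libraries, this largely follows from the choice. It is given as a description and not as a separate finding.

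RefSeq promoter windows of GRCm38.p6 were matched for 8 of the 10 members, *Ttr* and *Trf* being without an entry. The 250 bases before the start are shown for *Afp* and *Apoa1*, the members most alike, and for *Amn*, which followed another pattern. Sequences run 5′ to 3′ on the strand of the gene, and capitals mark each CG. They lie at chr5:90490464-90490713 (plus strand), chr9:46228380-46228629 (plus strand) and chr12:111270846-111271095 (plus strand).
Afp: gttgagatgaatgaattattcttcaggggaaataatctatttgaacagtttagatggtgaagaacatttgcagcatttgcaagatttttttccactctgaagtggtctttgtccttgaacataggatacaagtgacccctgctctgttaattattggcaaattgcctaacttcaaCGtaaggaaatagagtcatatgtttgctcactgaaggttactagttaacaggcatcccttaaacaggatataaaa
Apoa1: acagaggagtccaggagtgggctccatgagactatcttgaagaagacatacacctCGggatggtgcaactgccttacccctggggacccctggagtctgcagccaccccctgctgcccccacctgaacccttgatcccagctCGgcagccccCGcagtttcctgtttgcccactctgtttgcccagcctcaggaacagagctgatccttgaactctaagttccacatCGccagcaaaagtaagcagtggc
Amn: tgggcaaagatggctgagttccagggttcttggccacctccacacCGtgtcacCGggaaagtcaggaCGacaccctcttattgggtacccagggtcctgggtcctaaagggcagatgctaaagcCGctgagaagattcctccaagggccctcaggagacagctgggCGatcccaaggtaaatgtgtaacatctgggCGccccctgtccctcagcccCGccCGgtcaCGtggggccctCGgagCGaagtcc
The *Afp* stretch had 1 CG and 36% G and C bases, that of *Apoa1* had 4 CG and 58%, and that of *Amn* had 11 CG and 61.2%. Over the first window of each of 27025 genes the medians were 6 CG and 52%. *Amn* had the most CG of the 8 members, more than 64% of genes, and *Afp* and *Apoa4*, with 1 CG each, more than 8.26%. Letters of motifs of hepatic and endodermal factors were sought on both strands of the 300 bases. TGTTTAC, of FOXA factors, was in 3.55% of windows and in that of *Rbp4* as its reverse complement at chr19:38125556-38125562. CAAAGTCCA, of HNF4, was in 0.477% of windows and AGATAA, of GATA factors, in 11.4%, and neither was in a window of a member. Such a match describes letters only.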

How the data were processed

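The authors sequenced SMARTer-amplified cDNA of sorted EMPs (75-base single-end reads not used here), used the GRCm38/mm10 genome build and deposited RPKM values, which were read here as log2 for tests. The submitters' processing notes name TopHat2 2.0.13 and featureCounts. Members and gene lists were chosen with earlier results of these data known. All 15 columns were matched to libraries by their labels. Total reads were recovered from the steps of low RPKM values in single-exon genes, at least 122 genes per library. The 16877 genes with signal gave whole numbers of reads within 0.001. For each gene the shortest length that gave whole numbers was kept. Reads of genes with signal in few libraries are thus minimums and may be too low by a whole factor. Their RPKM values are not affected. In 24 pairs of replicates, chi-square per degree of freedom was 15.8 to 126, so no pair was a near duplicate.

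Comparisons used limma 3.58.1 in R 4.3.3 (lmFit and eBayes with trend) of log2(RPKM + 0.2). A gene was tested if 1 or more of the libraries compared had over 0.2 RPKM, with Benjamini-Hochberg adjustment over all genes and a threshold of 0.05. The code was tested on simulated data. The 5 WT libraries formed 1 control group. Alternatives were pseudocounts of 1 and 0.05, no filter except above 0, above 0.2 RPKM in at least 5 libraries, quantile normalization, a common median, corresponding WT libraries, limma-voom on recovered reads, and each library left out. The fit without both high libraries was added after seeing the data. Genes named are the 10 members, every gene of the other lists called in 1 of the 3 comparisons (13, of at most 20), the gene of each list most abundant by its mean over the libraries, defining endoderm and gate markers, the 3 genes most like each member, and examples that the report says were chosen after their values were seen. Reads that near-identical genes share were not resolved here. A few items are not reported here and were left out of the lists, their sums and the motif search. Tables were made with Python and pandas.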

Additional observations from a re-analysis of the deposited data

Results flagged for a closer look

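Values stood out by 2 rules, a library far from the rest of its group (27 of 71 groups) and a listed gene called between the knockouts (12 genes). The first rule flags about 1 in 20 groups by chance where values are normal, a rate that does not apply here, because the members were chosen on these libraries and several groups are mostly at 0. In Tie2-Ezh2-WT replicate 4, far above the other WT libraries, were *Afp* (48.2 RPKM), *Apoa1* (47.6), *Apoa4* (7.79), *Apob* (0.0345), *Apom* (23.9), *Rbp4* (32.4), *Ttr* (13.5), *Trf* (48.9), *Amn* (0.798), *Cited1* (3.61) and the sum of the members (223). In Tie2-Ezh2-KO replicate 7, far above its group, were *Afp* (59.9 RPKM), *Apoa1* (71.7), *Apoa4* (10.2), *Apom* (28.3), *Rbp4* (54.7), *Ttr* (22.6), *Trf* (51.6), *Cubn* (0.637), *Amn* (4.66) and the sum of the members (304). The same pair of libraries thus gave most of these values. The others were *Apoa4* (0.0418 RPKM) and *Cubn* (0.0461) in Vav-Ezh2-KO replicate 28, *Amn* (0.176) and *Vldlr* (0.171) in Vav-Ezh2-KO replicate 10, *Pltp* (0.391) in Vav-Ezh2-KO replicate 9 and *Spint1* (0.557) in Tie2-Ezh2-WT replicate 12, each at a low level.

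Listed genes that differed between the knockouts, as log2 of Tie2-Ezh2-KO minus Vav-Ezh2-KO, were *Hba-x* (5.64), *Cited1* (2.17), *Spint1* (2.04), *Ocln* (1.86), *Epcam* (1.78), *Pltp* (1.72), *Tjp3* (1.32), *Hbb-bh1* (1.29, kept in 10 of 17 alternatives), *Vldlr* (1.07), *Krt18* (0.88), *Gfi1b* (0.57) and *Cd68* (-0.71).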

How the results depend on the processing

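No paired analysis was possible because the groups compared share fewer than 2 replicate numbers. Of the results named in the report, the number of genes called in Tie2-Ezh2-KO against WT was 386 and ranged from 262 to 438 when each library was left out. It was 187 with only Tie2-Ezh2-WT as control and 217 without both high libraries, with fewer libraries in each fit. For other endoderm genes the count of 1 became 0 in both of these fits, and was 1 to 2 with each library left out, 2 being without Tie2-Ezh2-WT replicate 4. Between Vav-Ezh2-KO and WT the count of 1 became 2 with only Vav-Ezh2-WT as control and 0 with limma-voom, and was 1 to 2 with each library left out. Between the knockouts the count of 495 ranged from 320, without Vav-Ezh2-KO replicate 28, to 969, without Tie2-Ezh2-KO replicate 9, and the cause was not tested. Quantile normalization changed the share called higher there from 75.2% (372 of 495) to 63.6% (334 of 525). The summed level of the members moved by less than 1 SD under every alternative run for it, which in Tie2-Ezh2-KO did not include the filters or limma-voom. With each library left out, its log2 difference was -0.27 to 1.06 in Tie2-Ezh2-KO and -1.36 to -0.46 in Vav-Ezh2-KO. Against corresponding WT libraries it was -0.06 and -0.41. The spread in Tie2-Ezh2-KO and in WT was set by 1 library each, so a move below 1 SD says little about stability. This also holds for single members that are high in the pair. Of 310 differences of single members, 306 moved by less than 1 SD and 4 by more, all 4 under another pseudocount, such as *Amn* at 1.51 with a pseudocount of 1 and 4.34 with 0.05. *Apob*, *Cubn*, *Ttr* and *Apoa4* had few or no reads outside the pair, which limits their comparison. They were at 0 in Tie2-Ezh2-WT replicate 12, the library with most reads, and the part of depth in this was not tested.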
